A study of Mus musculus with 12 samples.

Results

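Dividing cells switch on a shared set of genes late in the cell cycle, and 34 of them were followed here across 12 cochlear RNA-seq libraries of mice that drank coffee, green tea extract or plain water. The members are a list of G2 and M phase genes, matched by symbol, and the list was drawn up with earlier results of these data known. All 34 were found among the 34538 genes of the files, and all 34 were among the 15854 genes that had at least 1 FPKM in at least 4 libraries. FPKM counts the sequenced fragments of a gene relative to its length and to the fragments of the library, so its levels allow for gene length. The genes were ordered by role into cyclins and Cdk1, mitotic kinases, chromosome and kinetochore proteins, spindle and cytokinesis proteins, and partners of the anaphase-promoting complex.

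The libraries came from cochleae of wild-type C57BL/6J mice aged 12 months. The coffee group had 0.1% black coffee in its drinking water from 3 to 12 months of age. The GTE group had 0.006% green tea extract over the same months, and the control group drank normal water. There were 4 libraries in each group, and the labels do not say whether they are separate animals, so p-values measure the spread between libraries.

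Entry into mitosis is driven by the kinase Cdk1 bound to a cyclin, and progress through it by the Polo and Aurora kinases, the kinetochores and the spindle. Exit follows when the anaphase-promoting complex, a ubiquitin ligase, marks cyclins and other mitotic proteins for destruction. The sensory and supporting cells of the adult mammalian cochlea divide little, whereas the bone that encloses it holds marrow, in which blood cell precursors divide. In bulk tissue, more dividing cells and more of such RNA per cell cannot be told apart.

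Before the genes themselves, 3 libraries stood apart. GTE 1 was the highest of the 12 libraries for 34 of the 34 genes, and coffee 1 and coffee 4 were among the 3 highest for all 34. Control 4 was the lowest library for 29 genes and control 2 for the other 5. GTE 1, coffee 1 and coffee 4 also had the highest summed FPKM of 6 neutrophil precursor markers. The cochlear label was checked against 14 cochlear markers, none of which was at 0 in any library. Coch, the gene of the matrix protein cochlin, ranged from 1080 to 2160 FPKM with coffee, from 1440 to 2150 FPKM with GTE and from 2300 to 2340 FPKM in controls. The FPKM denominators were between 20526024 and 24835934 fragments. For 30 of the 34 genes the values came out as whole fragments within 0.01, from 91 fragments (Ttk in control 2, exact 95% Poisson interval 73.3 to 111.7, counting error only) to 18304 (Mki67 in GTE 1).

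**Figure D1:**
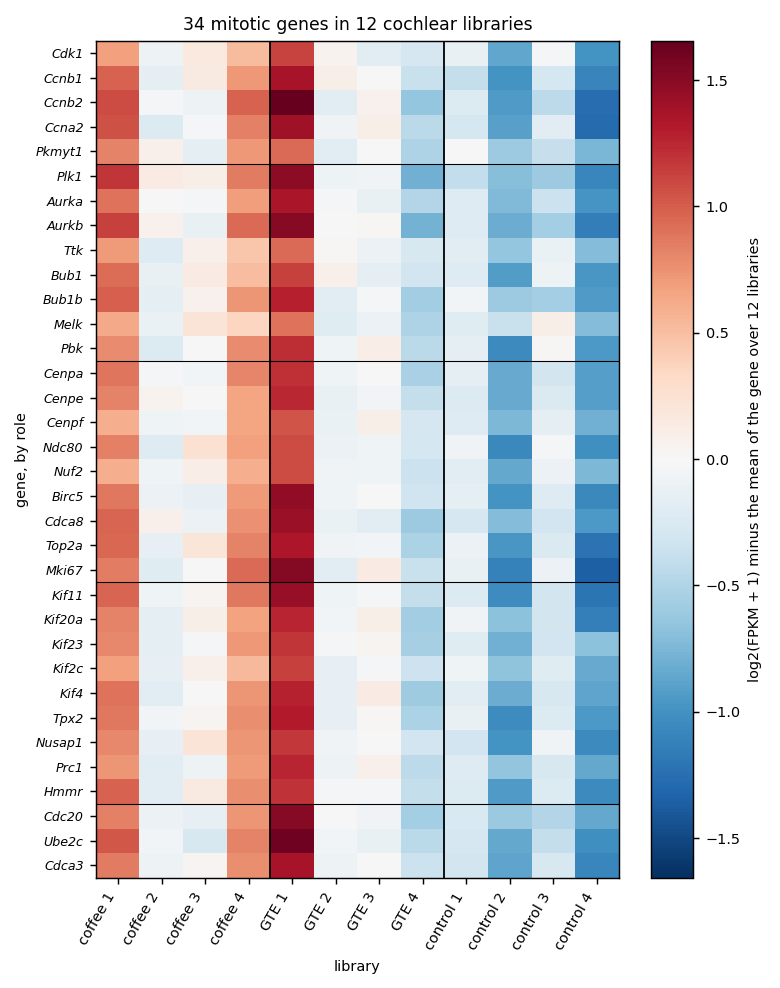
Level of each of the 34 mitotic genes (rows, ordered by role) in each of the 12 libraries (columns), as log2(FPKM + 1) minus the mean of the gene over the 12 libraries (colour). GTE 1, coffee 1 and coffee 4 are red for all 34 genes, and control 2 and control 4 are blue for all 34.

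Late cell cycle promoters carry a pair of known elements. The cell cycle genes homology region, CHR, is bound by the MuvB core shared by the DREAM, B-Myb and FoxM1 complexes, and the CCAAT box is bound by the factor NF-Y. Windows of 300 bases, from 250 before to 50 after the RefSeq transcript start (GRCm38.p6), were found for 28 of the 34 genes, and those of Ccna2, Tpx2, Pkmyt1, Aurkb, Pbk and Kif20a were not matched. For Kif2c, Cdca8, Cdca3 and Kif4 that start lay 3867, 2394, 629 and 328 bases after the gene start in the GENCODE annotation. Their windows lie inside the gene as annotated there and do not cover that start. The sequences below show how these elements are arranged in 5 of the genes given by library further on, and in Melk, the gene that differed least from control. They are written 5′ to 3′ on the strand of the gene, and capitals mark matches to TTTGAA (the CHR), TTTAAA (a CHR variant) or CCAAT, or to their reverse complements TTCAAA and ATTGG. The windows are chr9:70421505-70421804, minus strand, for Ccnb2; chr7:122159185-122159484, plus strand, for Plk1; chr11:99024140-99024439, minus strand, for Top2a; chr4:118437294-118437593, minus strand, for Cdc20; chr2:164769679-164769978, plus strand, for Ube2c; and chr4:44300667-44300966, plus strand, for Melk.
Ccnb2: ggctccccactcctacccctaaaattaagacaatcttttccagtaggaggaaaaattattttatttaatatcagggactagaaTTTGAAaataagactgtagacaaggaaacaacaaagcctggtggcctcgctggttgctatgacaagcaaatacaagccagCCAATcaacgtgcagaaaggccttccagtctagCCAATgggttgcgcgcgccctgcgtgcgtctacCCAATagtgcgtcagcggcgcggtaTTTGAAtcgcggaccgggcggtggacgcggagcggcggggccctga
Plk1: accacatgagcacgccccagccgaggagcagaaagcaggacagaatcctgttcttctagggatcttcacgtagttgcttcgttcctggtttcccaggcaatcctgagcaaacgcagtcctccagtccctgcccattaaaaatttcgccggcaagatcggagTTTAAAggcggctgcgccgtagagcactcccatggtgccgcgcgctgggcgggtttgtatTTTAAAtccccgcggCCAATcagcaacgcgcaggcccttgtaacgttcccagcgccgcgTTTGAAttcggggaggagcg
Top2a: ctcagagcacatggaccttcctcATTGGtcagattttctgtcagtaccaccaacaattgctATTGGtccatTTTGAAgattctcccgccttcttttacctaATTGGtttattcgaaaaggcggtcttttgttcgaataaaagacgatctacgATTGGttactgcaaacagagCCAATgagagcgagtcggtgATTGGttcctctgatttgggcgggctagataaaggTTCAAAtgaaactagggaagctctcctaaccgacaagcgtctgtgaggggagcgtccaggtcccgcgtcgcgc
Cdc20: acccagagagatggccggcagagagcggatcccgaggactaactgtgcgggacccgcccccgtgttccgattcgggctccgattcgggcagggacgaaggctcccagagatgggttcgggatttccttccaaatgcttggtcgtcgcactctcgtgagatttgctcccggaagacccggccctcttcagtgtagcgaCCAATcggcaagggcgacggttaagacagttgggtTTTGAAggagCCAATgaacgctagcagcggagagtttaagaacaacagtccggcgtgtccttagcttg
Ube2c: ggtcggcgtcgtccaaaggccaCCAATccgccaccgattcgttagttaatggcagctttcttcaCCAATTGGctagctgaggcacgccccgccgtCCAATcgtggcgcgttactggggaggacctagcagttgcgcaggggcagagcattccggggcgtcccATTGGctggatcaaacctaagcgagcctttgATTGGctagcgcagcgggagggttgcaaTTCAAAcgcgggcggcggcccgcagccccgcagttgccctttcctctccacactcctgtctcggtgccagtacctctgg
Melk: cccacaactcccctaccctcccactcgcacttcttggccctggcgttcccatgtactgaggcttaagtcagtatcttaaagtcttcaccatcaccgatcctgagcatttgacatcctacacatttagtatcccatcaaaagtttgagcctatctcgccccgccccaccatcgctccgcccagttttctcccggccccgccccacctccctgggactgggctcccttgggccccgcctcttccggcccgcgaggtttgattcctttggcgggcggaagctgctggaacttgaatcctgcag

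The Ccnb2 window held 2 CHR and 3 CCAAT matches, and Top2a and Ube2c each held 6 CCAAT matches. In Plk1 the CHR lay 31 bases after the transcript start, with 2 matches to the variant upstream. The Melk, Nuf2 and Nusap1 windows held none of the motifs. The Ccnb1 window held 0 TTTGAA, 1 TTTAAA and 2 CCAAT matches. The coffee minus control differences in mean log2(FPKM + 1) were 1.01 for Nusap1, 1.11 for Ccnb1, 0.88 for Cdc20 and 1.27 for Plk1. Whether the motifs go with the differences was not tested. Over both strands, 21 of the 28 windows held TTTGAA (75.0%), against 20.2% of the windows of 27025 genes. The variant TTTAAA was in 9 of 28 (32.1%), against 14.9%, and CCAAT was in 22 of 28 (78.6%), against 41.1%. A window with both TTTGAA and CCAAT was found for 19 of 28 genes (67.9%), against 8.0% of all genes. At least 2 CCAAT matches were in 16 of 28 (57.1%), against 13.3%. CCAAT matches on opposite strands can share letters, as they do once in Ube2c, and TTTAAA reads the same on both strands and was counted once. A match describes the sequence and is not a site of binding, and no match says only that these letters are not in this window.

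**Figure D2:**
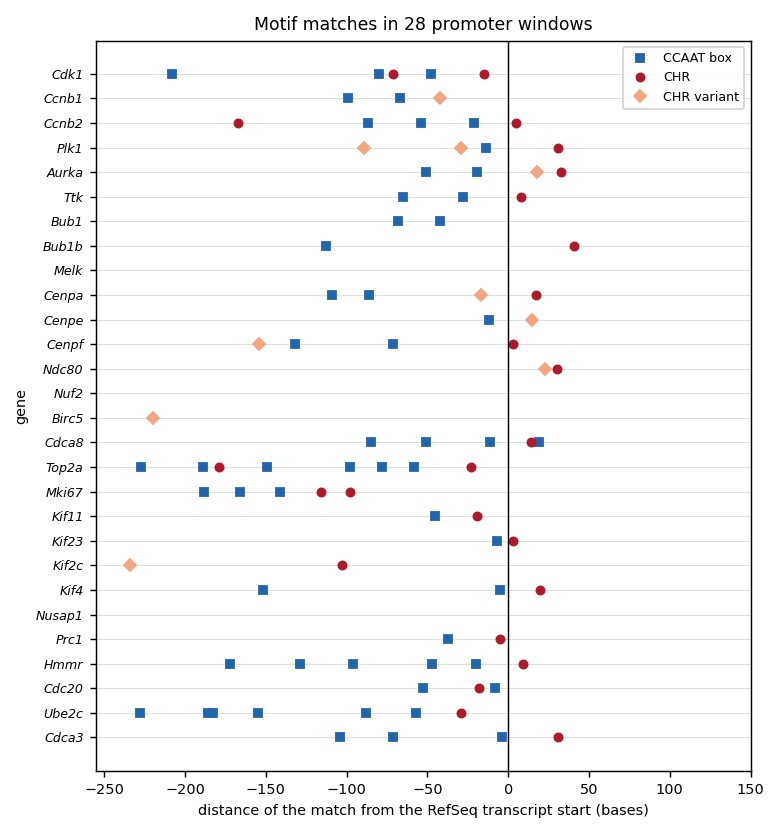
Positions of matches to the CCAAT box (squares), the CHR (circles) and the CHR variant (diamonds) in the 28 promoter windows (rows), as bases from the RefSeq transcript start (x axis). Of 25 CHR matches, 21 lie from 100 bases before to 50 bases after the start, and the 55 CCAAT matches have a median position of -71. The windows of Kif2c, Cdca8, Cdca3 and Kif4 lie inside the gene of the GENCODE annotation.

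Coffee was compared with control to ask what long coffee intake left in cochlear RNA. All 34 mitotic genes had a higher mean log2 level with coffee. The median difference was 0.94 on the log2(FPKM + 1) scale, on which the median of all tested genes was 0.01. Unadjusted limma p-values were under 0.05 for 33 of the 34 genes, a call made for 9.25% of all tested genes in that direction. Melk was the exception, with an unadjusted p of 0.0708. None was lower at that level, against 10.8% of all tested genes. After Benjamini-Hochberg adjustment over all tested genes limma called 0 of the 34 (adjusted p 0.210 to 0.280, with 0.00631% of all tested genes called), and voom on recovered fragments also called 0, with 27 of 30 genes at an unadjusted p under 0.05. In 19 genes every coffee library was above every control library, against 5.93% of all tested genes, and in 0 genes were all of them below (6.89%). For groups that do not overlap, an exact two-sided permutation test of 4 against 4 libraries always gives its smallest p, 0.0286. That p therefore restates the separation of the 19 genes and adds nothing to it. In the genes that overlapped, the exact permutation p was 0.0571 to 0.143.

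The unadjusted count rested on single libraries: 6 genes were under 0.05 without coffee 1, 8 without coffee 4, 7 without control 2 and 5 without control 4. In those 4 fits 3.76%, 4.0%, 6.62% and 5.05% of all tested genes were higher with coffee at that p, and the median difference of the 34 was 0.79 to 0.86. The count was 34 without coffee 2, 33 without coffee 3, 33 without control 1 and 32 without control 3. There the shares of all tested genes were 9.95%, 13.7%, 8.84% and 7.0%. With library weights 28 of the 34 passed the adjusted threshold, as did 2437 of all 15854 tested genes (15.4%). With the mean of 6 neutrophil precursor genes as a covariate the median difference was -0.27. Coffee and control libraries did not overlap in that mean, so this fit cannot tell coffee apart from the covariate.

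GTE was compared with control in the same way. All 34 genes had a higher mean log2 level with GTE, with a median difference of 0.74, against 0.01 over all tested genes. Unadjusted p-values were under 0.05 for Ccnb1, Cdca3, Nusap1, Kif11, Cenpf and Hmmr, which is 6 of 34, against 4.14% of all tested genes, and 0 were lower at that level, against 4.3%. Limma called 0 of the 34 after adjustment (adjusted p 0.574 to 0.703, with 0.00631% of all tested genes called), and voom on recovered fragments called 0, with 4 of 30 at an unadjusted p under 0.05. In 0 genes were all GTE libraries above all control libraries, against 2.88% of all tested genes, and in 0 were they all below, against 2.95%. The means of GTE 2 to 4 over the control means ran from 1.01 for Melk to 1.59 for Ccnb1.

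Here too the count moved with single libraries: it was 0 without GTE 1, without control 2 or without control 4, 31 without GTE 4, 13 without control 1 and 14 without control 3. Of all tested genes 6.99% were higher with GTE at that p without GTE 4, and 2.99% to 3.94% in the other 5 fits. The median difference was 0.38 without GTE 1 and -0.013 with the neutrophil precursor covariate.

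GTE and coffee were compared directly as well. The mean log2 level of all 34 genes was lower with GTE than with coffee, by a median of -0.19, against -0.0019 over all tested genes. The differences ran from -0.43 (SE 0.42) for Plk1 to -0.07 (SE 0.40) for Birc5, the chromosomal passenger subunit survivin. None of the 34 had an unadjusted limma p under 0.05 (against 4.52% of all tested genes higher and 2.23% lower with GTE), voom on recovered fragments found 0 as well, and none was called after adjustment (0.0% of all tested genes). In 0 genes did the groups separate, against 1.7% of all tested genes higher and 0.839% lower. Without GTE 1, 7 genes had an unadjusted p under 0.05, all lower with GTE, and the median was -0.54. In that fit 8.34% of all tested genes were lower and 12.1% higher with GTE at that p. The median of the 34 genes was 0.011 without GTE 4 and 0.24 with the neutrophil precursor covariate. Tests of any difference between the 3 groups gave Ccnb1 the smallest unadjusted limma p among the 34, 0.0237 (adjusted p 0.371).

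**Figure D3:**
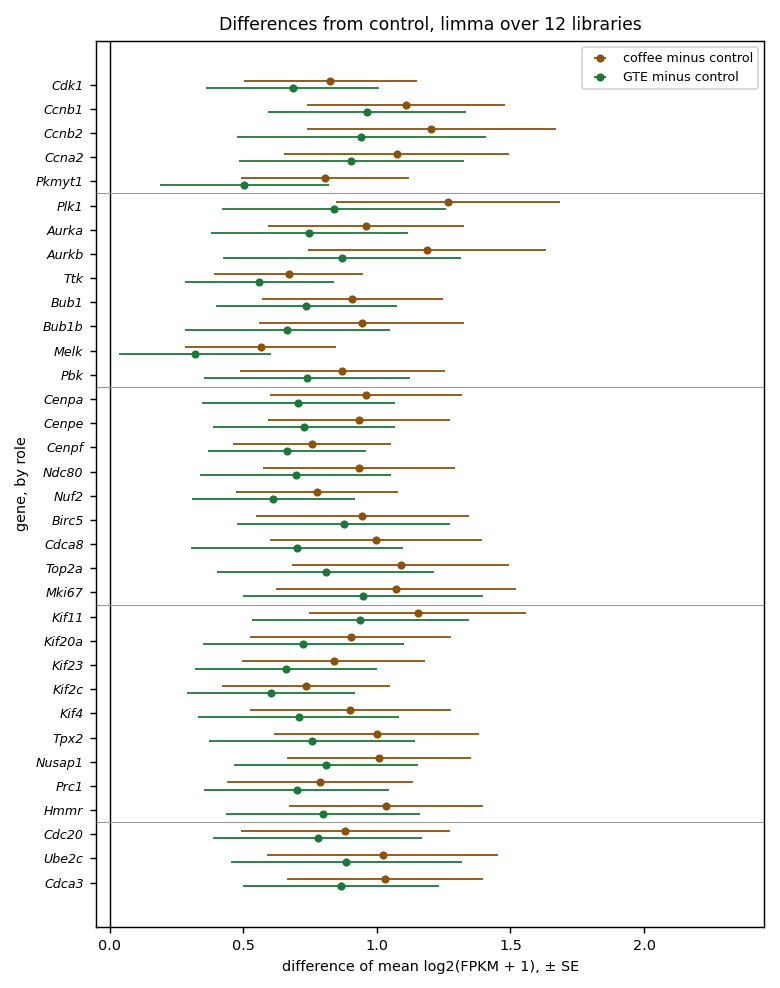
Differences in mean log2(FPKM + 1) from control for the 34 genes (rows, by role), with coffee (brown) and with GTE (green), as points with standard errors from limma over 12 libraries. All 34 points of each comparison lie above 0, and each coffee point lies to the right of the GTE point of its gene.

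Cyclins and Cdk1 carry the switch into mitosis. Ccnb1, the B-type cyclin that activates Cdk1 (chr13:100778650-100786570, minus strand, mm10), had 16.1, 6.80, 8.69 and 13.4 FPKM in coffee libraries 1 to 4, 21.6, 8.33, 7.69 and 5.77 FPKM in GTE libraries 1 to 4, and 5.65, 3.41, 6.13 and 3.10 FPKM in control libraries 1 to 4. All coffee libraries were above all controls, while GTE 4 lay within the control range. The Ccnb1 difference was 1.11 (SE 0.37) for coffee, with an unadjusted limma p of 0.0118 and an adjusted p of 0.211, and 0.96 (SE 0.37) for GTE, with an adjusted p of 0.574. The GTE difference was the largest of the 34. In the same library order, Ccnb2, the second B-type cyclin (chr9:70407692-70421547, minus strand), had 33.97, 15.3, 14.6 and 31.6 FPKM with coffee, 51.1, 13.6, 16.3 and 9.61 FPKM with GTE, and 13.1, 7.61, 11.3 and 5.87 FPKM in controls. Its SD over the 12 libraries, 0.855, was the widest of the 34 genes on the log2(FPKM + 1) scale. In FPKM its GTE 1 was 8.70 times control 4, below the 8.84 times of Kif20a. Coffee and control libraries of Ccnb2 did not overlap, and its coffee difference was 1.20 (SE 0.47, limma adjusted p 0.221).

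Ccna2, cyclin A2 of S and G2 phase (chr3:36564865-36572150, minus strand), had 24.5, 9.49, 11.1 and 20.8 FPKM with coffee, 31.3, 10.7, 12.0 and 7.94 FPKM with GTE, and 9.02, 5.54, 9.79 and 4.07 FPKM in controls. Coffee 2 lay below control 3, so the groups overlapped, and the coffee difference was 1.07 (SE 0.42, limma adjusted p 0.221). The antisense neighbour Exosc9 shares 12.49% of the exon bases of Ccna2. Pkmyt1, the kinase that holds Cdk1 inactive before mitosis (chr17:23726336-23736735, plus strand), had 12.5, 7.02, 5.83 and 11.5 FPKM with coffee, 13.6, 5.73, 6.63 and 4.32 FPKM with GTE, and 6.61, 3.99, 4.80 and 3.48 FPKM in controls. It was higher with coffee by 0.81 (SE 0.32, limma adjusted p 0.221), with coffee 3 inside the control range. Cdk1 itself averaged 9.80 ± 2.53 FPKM with coffee, 9.40 ± 5.31 FPKM with GTE and 5.23 ± 2.07 FPKM in controls (SD, n = 4 each). The ratio of Ccnb1 to Cdk1 FPKM was 0.976 to 1.29 in coffee libraries and 0.964 to 1.25 in GTE libraries, against 0.840 to 0.956 in controls, so neither treated range reached the control range. These ratios are a description, read off after the values were seen.

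**Figure D4:**
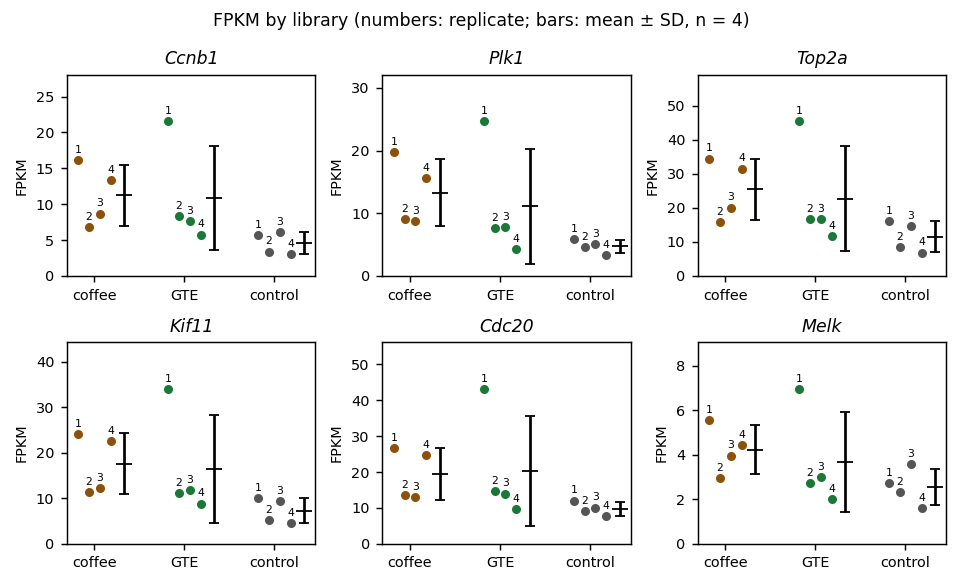
FPKM of Ccnb1, Plk1, Top2a, Kif11, Cdc20 and Melk in each library (points, numbered by replicate) for coffee, GTE and control, with the mean ± SD of 4 libraries (bars). In each panel GTE 1 is the highest point and control 4 the lowest, as for Ccnb1 with 21.6 and 3.10 FPKM.

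Among the mitotic kinases, Plk1, the Polo kinase of centrosomes and kinetochores (chr7:122159439-122169873, plus strand), had 19.8, 9.05, 8.78 and 15.6 FPKM with coffee, 24.7, 7.66, 7.79 and 4.29 FPKM with GTE, and 5.90, 4.61, 5.05 and 3.32 FPKM in controls. Coffee libraries were all above controls, and GTE 4 lay among the controls. With 1.27 (SE 0.42) Plk1 had the largest coffee difference of the 34, at an unadjusted limma p of 0.0113 and an adjusted p of 0.210. For GTE its difference was 0.84 (SE 0.42, limma adjusted p 0.574). Aurka, the Aurora kinase of the spindle poles (chr2:172356190-172370535, minus strand), had 14.6, 7.34, 7.19 and 12.4 FPKM with coffee, 20.3, 7.20, 6.67 and 4.94 FPKM with GTE, and 6.21, 4.02, 5.52 and 3.24 FPKM in controls. Again the coffee libraries were above all controls and GTE 4 was not; the coffee difference was 0.96 (SE 0.37, limma adjusted p 0.221).

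Melk, a kinase of the AMPK-related family found in dividing and progenitor cells (chr4:44300876-44364675, plus strand), had 5.56, 2.96, 3.96 and 4.44 FPKM with coffee, 6.96, 2.72, 2.99 and 2.004 FPKM with GTE, and 2.72, 2.31, 3.58 and 1.59 FPKM in controls. Control 3 exceeded coffee 2, and GTE 2, GTE 3 and GTE 4 all lay within the control range. It had the smallest difference of the 34 in both comparisons with control, 0.57 (SE 0.28, limma adjusted p 0.280) for coffee and 0.32 (SE 0.28, limma adjusted p 0.703) for GTE. The ratio of Plk1 to Melk was 2.22 to 3.56 in coffee libraries and 2.14 to 3.55 in GTE libraries, against 1.41 to 2.17 in controls, so the coffee range alone lay above the control range. Aurkb, the Aurora kinase of the chromosomal passenger complex, averaged 10.99 ± 5.0 FPKM with coffee, 9.72 ± 7.94 FPKM with GTE and 4.05 ± 1.38 FPKM in controls, and its coffee libraries did not overlap the controls. The spindle checkpoint kinases Ttk and Bub1, the checkpoint protein Bub1b and the mitotic kinase Pbk overlapped between coffee and control, with differences of 0.67 to 0.94.

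Chromosome and kinetochore genes included the most abundant member. Mki67, which coats mitotic chromosomes and is the classical marker of cycling cells (chr7:135689784-135716361, minus strand), had 48.8, 23.1, 26.7 and 52.0 FPKM with coffee, 78.0, 23.4, 29.4 and 20.4 FPKM with GTE, and 24.3, 11.8, 24.9 and 9.84 FPKM in controls. Control 1 and control 3 were above coffee 2, and the coffee difference was 1.07 (SE 0.45, limma adjusted p 0.229). Top2a, the topoisomerase that untangles sister DNA (chr11:98992943-99024189, minus strand), had 34.4, 15.7, 20.1 and 31.5 FPKM with coffee, 45.5, 16.7, 16.7 and 11.8 FPKM with GTE, and 16.2, 8.41, 14.6 and 6.85 FPKM in controls. Only control 1 overlapped the coffee libraries, through coffee 2, and the coffee difference was 1.09 (SE 0.41, limma adjusted p 0.220). For GTE the differences were 0.95 (SE 0.45) for Mki67 and 0.81 (SE 0.41) for Top2a, both at a limma adjusted p of 0.574.

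The other 7 genes of this group were all higher with coffee, at unadjusted p-values under 0.05, against 9.25% of all tested genes. They are the centromeric histone variant Cenpa, the kinetochore proteins Cenpe, Cenpf, Ndc80 and Nuf2, and the chromosomal passenger subunits Birc5 and Cdca8. Of these 7, only Ndc80 had coffee and control libraries that overlapped. Among all tested genes, 5.93% had every coffee library above every control library. Birc5 averaged 11.6 ± 4.52 FPKM with coffee, 12.04 ± 8.76 FPKM with GTE and 5.47 ± 2.12 FPKM in controls (SD, n = 4 each). Cenpa averaged 8.97 ± 3.43 FPKM with coffee, 7.91 ± 5.21 FPKM with GTE and 4.02 ± 1.31 FPKM in controls. In both genes the GTE SD was the widest of the 3 groups, through GTE 1. Over all 9 genes the coffee differences ran from 0.76 to 1.09 and the GTE differences from 0.61 to 0.95. Cenpf was at an unadjusted p under 0.05 with GTE, at 0.0459 (limma adjusted p 0.574).

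Of the spindle and cytokinesis genes, Kif11, the motor that pushes spindle poles apart (chr19:37376403-37421859, plus strand), had 24.1, 11.3, 12.3 and 22.6 FPKM with coffee, 34.02, 11.2, 11.7 and 8.82 FPKM with GTE, and 10.03, 5.22, 9.37 and 4.56 FPKM in controls. Its coffee libraries were all above its controls, by 1.15 (SE 0.41, limma adjusted p 0.215). GTE 4 lay below control 1 and control 3, and the GTE difference was 0.94 (SE 0.41, limma adjusted p 0.574). Nusap1, which binds and bundles spindle microtubules (chr2:119618298-119651244, plus strand), had 18.5, 9.22, 12.0 and 17.6 FPKM with coffee, 24.2, 9.73, 10.3 and 8.03 FPKM with GTE, and 7.97, 4.65, 9.73 and 4.40 FPKM in controls. Coffee 2 was just below control 3, and the differences were 1.01 (SE 0.34, limma adjusted p 0.212) for coffee and 0.81 (SE 0.34, limma adjusted p 0.574) for GTE.

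The motors Kif20a, Kif23, Kif2c and Kif4, the spindle factor Tpx2, the midzone bundler Prc1 and the hyaluronan receptor and spindle protein Hmmr completed the group. Tpx2, which brings Aurka to the spindle, averaged 13.25 ± 4.60 FPKM with coffee, 12.1 ± 8.42 FPKM with GTE and 6.13 ± 2.32 FPKM in controls (SD, n = 4 each). Hmmr averaged 6.20 ± 2.58 FPKM with coffee, 5.40 ± 3.57 FPKM with GTE and 2.46 ± 1.03 FPKM in controls, and its coffee libraries did not overlap the controls. Over its 9 genes the differences were 0.73 to 1.15 for coffee and 0.60 to 0.94 for GTE, and 9 of 9 and 3 of 9 were at an unadjusted p under 0.05, against 9.25% and 4.14% of all tested genes higher in those comparisons. Kif20a shares 29.3% of its exon bases with the antisense Cdc23, Kif4 shares 15.09% with Pdzd11, and Prc1 shares 11.08% with Rccd1. The library kit keeps strand, but whether counting used it is not given in the sources used here, so values of genes with such neighbours are uncertain.

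The anaphase-promoting complex was represented by its activator and its ubiquitin-conjugating enzyme. Cdc20, the activator (chr4:118432901-118437352, minus strand), had 26.7, 13.5, 13.1 and 24.7 FPKM with coffee, 43.2, 14.6, 13.97 and 9.56 FPKM with GTE, and 12.0, 9.13, 10.1 and 7.62 FPKM in controls. Coffee libraries were all above controls, and the control libraries lay close together, between 7.62 and 12.0 FPKM. Ube2c, the conjugating enzyme (chr2:164769898-164778822, plus strand), had 28.6, 13.1, 11.02 and 24.6 FPKM with coffee, 43.1, 13.0, 12.3 and 9.67 FPKM with GTE, and 10.95, 7.03, 10.04 and 6.13 FPKM in controls. Coffee and control libraries did not overlap, but coffee 3 was above control 1 by a margin far below the spread between replicates. The antisense gene Tnnc2 shares 22.77% of the exon bases of Ube2c, which makes its values uncertain.

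Cdca3, an adaptor that triggers mitotic entry and is itself a target of the complex (chr6:124829547-124833701, plus strand), had 18.2, 8.99, 9.99 and 17.2 FPKM with coffee, 26.3, 9.04, 9.67 and 7.30 FPKM with GTE, and 7.64, 4.79, 7.80 and 4.004 FPKM in controls. Its coffee libraries were above all controls, with GTE 4 below control 1 and control 3. The coffee differences of the 3 genes were 0.88 (SE 0.39) for Cdc20, 1.02 (SE 0.43) for Ube2c and 1.03 (SE 0.37) for Cdca3, at limma adjusted p-values of 0.240, 0.231 and 0.216. With GTE the same genes differed from control by 0.78 to 0.88, each at a limma adjusted p of 0.574. The ratio of Ube2c to Cdc20 was 0.841 to 1.07 with coffee, 0.881 to 1.01 with GTE and 0.770 to 0.995 in controls, ranges that overlap.

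The 34 genes varied together from library to library. Their log2 levels had SDs over the 12 libraries between 0.465 (Melk) and 0.855 (Ccnb2). Once the mean of the 34 genes in each library was subtracted, the SDs were between 0.060 (Cenpa) and 0.272 (Melk), with Plk1 next to Melk at 0.218. All these values share their libraries, so the SDs describe them and were not tested. The summed FPKM of the 34 genes was 244.5 to 522.9 with coffee, 182.1 to 728.2 with GTE and 110.1 to 225.7 in controls.

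Other genes of the cell cycle were read from lists of their own. At an unadjusted limma p under 0.05, 9.25% of all tested genes were higher and 10.8% lower with coffee. With GTE 4.14% were higher and 4.3% lower. These shares stand beside the counts of every list below. Of 45 tested further G2 and M phase genes, 34 were higher with coffee at an unadjusted limma p under 0.05 and 10 were higher with GTE, with 0 lower in either and medians of 0.80 and 0.62. Smc4 and Smc2, core subunits of condensin, were higher with coffee by 0.97 and 0.94 and with GTE by 0.77 and 0.79. Pttg1, which encodes the separase inhibitor securin, was the single gene of the list with lower means, at 19.4 ± 1.29 FPKM with coffee, 20.3 ± 2.65 FPKM with GTE and 21.5 ± 1.67 FPKM in controls (SD, n = 4 each), and its differences of -0.14 and -0.08 had unadjusted limma p-values of 0.184 and 0.400. Mybl2, the gene of B-Myb, averaged 4.603 ± 1.72 FPKM with coffee, 4.55 ± 3.67 FPKM with GTE and 1.72 ± 0.692 FPKM in controls.

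Of 27 tested DNA replication genes, 17 were higher with coffee at an unadjusted p under 0.05 and 2 with GTE, with medians of 0.70 and 0.59. Rrm2, a subunit of ribonucleotide reductase, averaged 29.5 ± 13.9 FPKM with coffee, 29.3 ± 24.8 FPKM with GTE and 11.4 ± 4.69 FPKM in controls. Cdt1, which licenses replication origins, averaged 8.52 ± 3.36, 6.95 ± 5.05 and 3.31 ± 1.19 FPKM in the same groups. The summed mitotic FPKM divided by the summed replication FPKM was 1.030 to 1.187 in coffee libraries and 0.975 to 1.217 in GTE libraries, against 0.775 to 0.991 in controls. All coffee libraries were therefore above all controls in this ratio of sums, and GTE libraries overlapped them. The replication sum is led by Pcna, which averaged 62.9 FPKM over the 12 libraries. On the mean log2 scale, which weighs each gene alike, coffee and control did not separate in this way. The mitotic and replication means were 2.819 and 2.767 in coffee 2 and 2.663 and 2.61 in control 3.

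Regulators of G1 phase and inhibitors of the cyclin-dependent kinases were mixed. Of 17 tested, 5 were higher with coffee at an unadjusted p under 0.05 (Cdk6, Ccne1, Ccne2, Cdk2 and E2f1) and 2 lower (Cdkn1a and Cdkn1c), and with GTE 3 were higher (Cdk6, Ccne2 and Rb1) and 1 lower (Cdkn1a). Cdkn1a, the gene of the inhibitor p21, had 28.6, 35.6, 29.8 and 33.4 FPKM in coffee libraries, 25.7, 33.8, 31.5 and 30.9 FPKM in GTE libraries and 39.0, 48.0, 53.3 and 62.5 FPKM in controls. Every coffee and every GTE library was below every control, GTE 1 being the lowest. The differences were -0.64 for coffee (unadjusted limma p 0.000623, adjusted p 0.199) and -0.70 for GTE (unadjusted p 0.000296, adjusted p 0.361). Cdkn1b, the gene of p27, averaged 39.2 ± 1.81 FPKM with coffee, 44.1 ± 3.67 FPKM with GTE and 40.5 ± 6.76 FPKM in controls, with unadjusted p-values of 0.776 and 0.239.

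Markers of marrow cells also varied between the libraries. Of all tested genes 9.25% were higher with coffee and 4.14% with GTE at an unadjusted limma p under 0.05. Of 6 genes of neutrophil precursors, such as Elane and Prtn3, 6 were higher with coffee and 4 with GTE at an unadjusted limma p under 0.05. Their summed FPKM was 1188 to 2006 with coffee, 582.8 to 2275 with GTE and 276.2 to 821.6 in controls, highest in GTE 1 and lowest in control 4, and none of the genes was at 0 in any library. Of 10 erythroid precursor markers, such as Hba-a1 and Car2, 0 were at an unadjusted p under 0.05 with coffee (0 after adjustment, 8 of 10 with a positive difference) and 2 with GTE, with median differences of 0.87 and 1.20. The exceptions with coffee were Hba-a1, a haemoglobin chain (-0.155), and Car2, a carbonic anhydrase (-0.021). The summed FPKM of the 10 markers was 732.7 to 2065 with coffee, 1410 to 3326 with GTE and 1229 to 1813 in controls. These sums are led by Hba-a1, which averaged 1325 FPKM over the 12 libraries. The mean log2 level of the 10, which weighs each gene alike, was 3.291 to 5.724, 4.365 to 6.304 and 3.323 to 4.465. The B cell precursor markers, such as Cd79a and Vpreb3, summed to 11.1 to 30.8, 10.97 to 47.4 and 9.35 to 15.1 FPKM in coffee, GTE and control libraries.

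Of 8 late neutrophil markers, led by S100a9 and S100a8, 2 were higher with coffee and 0 with GTE, against 9.25% and 4.14% of all tested genes. Of 5 tested T and NK cell markers, led by Nkg7, 5 were higher with coffee and 1 with GTE. Of 6 bone markers, led by Col1a1 and Ibsp, 0 were at an unadjusted p under 0.05 in either comparison. Of 14 cochlear markers, 9 were lower with coffee and 1, Slc26a5, with GTE, against 10.8% and 4.3% of all tested genes. The summed FPKM of the 14 was 1691 to 3232 with coffee, 2213 to 3482 with GTE and 3456 to 3592 in controls. These sums are led by Coch, which averaged 1909 FPKM over the 12 libraries. The mean log2 level of the 14 was 4.526 to 5.14, 4.594 to 5.306 and 5.108 to 5.42, so coffee and control libraries overlapped in it. With coffee 12 of the 14 differences were below 0, and those of Myo7a (0.04) and Otog (0.18) were above. The part of these cell types in the mitotic gene differences was not tested.

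A fit with the mean log2 level of the 6 neutrophil precursor genes as a covariate was also made. That mean was 7.346 to 8.013 in coffee libraries, 6.379 to 8.219 in GTE libraries and 5.323 to 6.827 in controls. Coffee and control libraries did not overlap in it, so this fit cannot tell coffee apart from the covariate. With it the coffee differences of all 34 genes were below 0, with a median of -0.27 and 0 of 34 at an unadjusted p under 0.05. The GTE differences had a median of -0.013, with 11 above 0 and 23 below 0, and 0 at an unadjusted p under 0.05. Without coffee 1, coffee 4 and GTE 1, the medians were 0.54 for coffee and 0.38 for GTE, and 8 and 2 genes had an unadjusted p under 0.05. Of all tested genes 4.3% were higher with coffee and 4.14% with GTE at that p without these libraries.

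**Figure D5:**
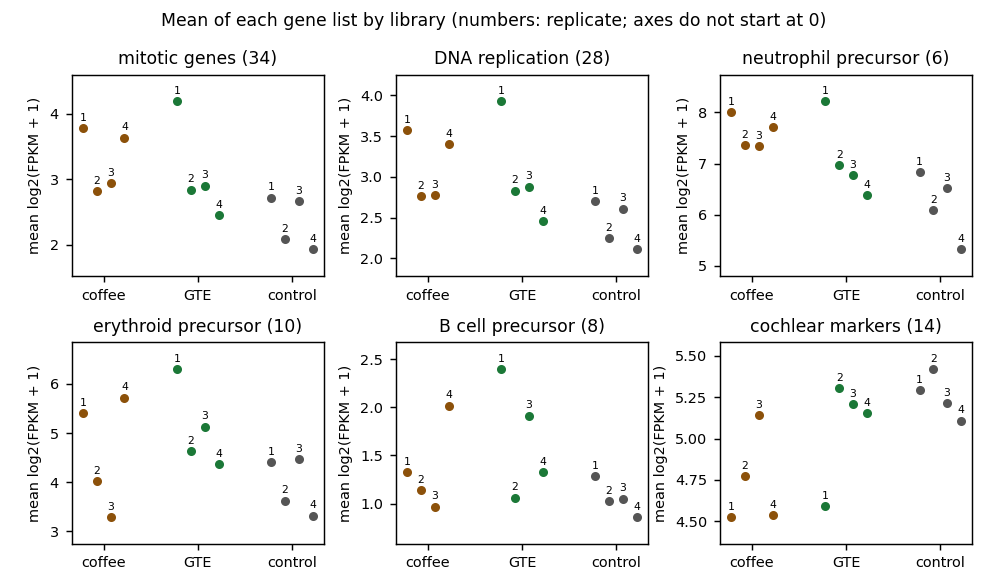
Mean log2(FPKM + 1) of the 34 mitotic genes and of 5 other gene lists in each library (points, numbered by replicate), for coffee, GTE and control. GTE 1, coffee 1 and coffee 4 are the highest libraries for the mitotic, replication, neutrophil precursor and erythroid precursor lists and the lowest for the cochlear markers.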

How the data were processed

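RNA was measured in 12 cochlear libraries. The labels' protocols name Trizol for extraction and a TruSeq kit for stranded mRNA libraries. The deposited values are FPKM per Ensembl gene and library, made by the authors. The submitters' processing notes list Trimmomatic, HISAT2, Cufflinks and HTSeq and the build mm10. What each tool did, its version, the annotation and the strand setting of counting are unstated there: not given in the sources used here.

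From these values, limma 3.58.1 in R 4.3.3 was run on log2(FPKM + 1), a scale that understates changes of low genes. The fit held 3 group means over 12 libraries, with empirical Bayes moderation and a mean-variance trend, on the 15854 genes that reached 1 FPKM in 4 or more libraries. Benjamini-Hochberg adjustment was made over these genes within each comparison, at a threshold of 0.05. Exact permutation tests were two-sided over the 70 arrangements of 4 against 4 libraries. The limma script was tested on simulated data. Whole fragments were recovered from the steps of the FPKM values with GENCODE M21 exon lengths, and voom on them is an alternative chosen after seeing the data. Gene positions are from GENCODE M21, and promoter sequences from RefSeq.

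The members and all gene lists were chosen with earlier results of these data known. Values in every library are given for the 2 most abundant genes of each role and the 3 with the smallest limma p in each comparison; genes of other lists are named for abundance or small p, and members of counts of 6 or fewer, Mybl2, Smc2 and the ratios were named after their values were seen. Alternatives were a pseudocount of 0.1, no filter, quantile normalization, 8 libraries, a replicate block, library weights, a marker covariate and leaving libraries out.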

Additional observations from a re-analysis of the deposited data

Results flagged for a closer look

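One of the 34 mitotic genes had a GTE library far from the others of its group on the log2(FPKM + 1) scale. For Ndc80, the microtubule-binding kinetochore protein, the gap between GTE 1 and the next GTE library was 0.844 of the whole range of the GTE group, above Dixon's 95% critical value for 4 libraries. Ndc80 had 14.2, 5.70, 5.81 and 4.87 FPKM in GTE libraries 1 to 4, against 5.89, 2.43, 6.04 and 2.54 FPKM in controls. On the FPKM scale itself 19 of the 34 genes passed that value in the GTE group, each time through GTE 1, and 0 did in the coffee or control groups. Chance gives such a gap in about 1 in 20 groups, and the 34 genes share their libraries, so these are not separate events.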

How the results depend on the processing

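The 34 coffee differences stayed above 0 in every setting run except the fit with the neutrophil precursor covariate, and so did the 34 GTE differences from control; pseudocount, filter, quantile normalization and voom (30 of the 34 genes, those with whole fragments) changed no direction. With the covariate the median difference was -0.27 for coffee minus control, -0.013 for GTE minus control and 0.24 for GTE minus coffee, and 0, 0 and 1 genes had an unadjusted p under 0.05. Its coffee differences were -0.10 for Ccnb1, -0.35 for Ccnb2, -0.32 for Ccna2, -0.20 for Pkmyt1, -0.10 for Plk1, -0.28 for Aurka, -0.36 for Melk, -0.29 for Top2a, -0.40 for Mki67, -0.21 for Kif11, -0.10 for Nusap1, -0.37 for Cdc20, -0.38 for Ube2c and -0.19 for Cdca3. With the covariate, GTE minus control was below 0 for 23 of the 34 genes, and GTE minus coffee was above 0 for all 34. Among the genes named in this report, GTE minus control turned for Ccnb2 (-0.040), Pkmyt1 (-0.13), Plk1 (-0.024), Aurka (-0.036), Melk (-0.26), Top2a (-0.065), Cdc20 (-0.015) and Ube2c (-0.0009). Examples of GTE minus coffee were Pkmyt1 (0.069), Plk1 (0.072), Melk (0.092) and Birc5 (0.42). The cause was not tested.

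Leaving out 1 library at a time, the genes at an unadjusted p under 0.05 numbered 5 to 34 for coffee, 0 to 31 for GTE and 0 to 7 for GTE minus coffee. Those whose groups did not overlap numbered 19 to 32, 0 to 24 and 0 to 3. With 1 library fewer, groups of any gene separate more easily. The share of all tested genes was not computed for these counts. The median GTE minus coffee ran from -0.54 to 0.011, and Birc5 from -0.47 to 0.13. Without coffee 1, coffee 4 and GTE 1, 8 genes for coffee and 2 for GTE were under an unadjusted p of 0.05, beside 4.3% and 4.14% of all tested genes higher. Library weights called 28 genes for coffee after adjustment, beside 2437 of all 15854 tested genes. They left 1 for GTE and 19 for GTE minus coffee at an unadjusted p under 0.05, beside 6.11% of all tested genes higher and 12.9% lower in those comparisons; with the 8 compared libraries alone GTE had 3.

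Libraries of the same replicate number correlated between -0.383 and 0.550 after group means were removed, over 0.1 in 5 of 12 pairs, and 4 of the 12 libraries correlated best with their own number, so the numbers were not read as pairs. With the replicate block 34 genes for coffee and 32 for GTE had an unadjusted p under 0.05, and 0 passed adjustment. Of all tested genes 12.3% were higher with coffee and 6.59% with GTE at that p in this fit.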
